A study of Mus musculus with 6 samples.

Results

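The muscle actin and tropomyosin genes are the 10 genes that encode the 6 actins and the 4 tropomyosins of the mouse, *Acta1*, *Actc1*, *Acta2*, *Actg2*, *Actb*, *Actg1*, *Tpm1*, *Tpm2*, *Tpm3* and *Tpm4*. They were taken from the gene-count table by Ensembl identifier, with symbols from GENCODE release M21, and were 10 of 56262 genes listed. All 10 passed the filter on low counts, which 22071 genes passed. The RNA-seq covered leg muscle of mouse fetuses at embryonic day 18.5, with 3 wild-type (WT) samples and 3 samples from fetuses in which the long noncoding RNA *SYISL* was knocked out (KO), and the question was how muscle development differs without *SYISL*. No treatment was named for either group. Parents in each mating had the same genotype, so the genotype of a fetus and that of its mother and litter cannot be told apart. The labels do not say whether a sample is 1 fetus or a pool, or whether samples come from separate litters, so the p-values measure only the spread among these samples.

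Actin polymerizes into the thin filament of the sarcomere, the contractile unit of striated muscle, and into the filaments of the cytoskeleton in every cell. Tropomyosin is a coiled coil that lies along the actin filament and, together with troponin, sets whether myosin can bind it. In skeletal muscle, cardiac α-actin (*Actc1*) is prominent before birth and skeletal α-actin (*Acta1*) predominates afterwards, while the cytoplasmic actins serve the cytoskeleton and the smooth muscle actins contract vessels and viscera. Each tropomyosin gene gives several transcripts by alternative promoters and splicing, of which some are sarcomeric and others cytoskeletal.

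The samples held between 82054811 and 102233181 counts, so that a limit of 3 counts corresponded to 0.0284 to 0.0363 CPM, covering counting error only. Levels are given as CPM, counts per 1000000 of the TMM-scaled library size, and means with ± the SD over the 3 samples of a genotype. The host gene of *SYISL*, *Synpo2*, had 135.5 ± 4.21 CPM in the WT and 214 ± 18.9 CPM in the KO samples (SD, n = 3 each). By the rule given below it was called higher, with a log2 fold change of 0.66 and an adjusted p of 2.89e-05 by edgeR. Since *SYISL* has no symbol in the annotation used here, the counts of *Synpo2* do not check the deletion. Of 10 skeletal muscle markers, 6 were called higher in KO and the other 4 were not called, by the rule given below. The median log2 fold change of the 10 was 0.97. Over all genes tested, 8.31% were called higher and 8.39% lower. At the adjusted p alone by edgeR, 8 markers were higher and 2 lower, beside 21.9% and 23.1% of all genes. The 2 lower were the myogenic factors *Myog* and *Myod1*, with log2 fold changes of -0.22 each and every KO value below every WT value. The 10 markers summed to 6654 to 7166 CPM in the WT and 12528 to 15876 CPM in the KO samples. Both genotypes thus carried the markers of the labelled tissue. All 10 keratinocyte markers and all 5 erythroid markers were called lower in KO, beside 8.39% of all genes. The keratinocyte markers summed to 16149 to 24154 CPM in the WT and 707 to 813 CPM in the KO samples, and the erythroid markers to 3228 to 3994 CPM and 474 to 548 CPM. These non-muscle transcripts moved with genotype in all 6 samples, and their part in the results below was not tested. In bulk RNA, fewer cells of a type and less RNA per cell cannot be told apart.

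Stretches before the RefSeq gene starts of 3 actin genes are shown because they hold a CArG box, a sequence motif known from muscle promoters. The CArG box, a CC and a GG flanking a run of A or T bases, is the site read by serum response factor, and CATTCC is the MCAT element read by TEAD factors. Each line is taken from the 100 bases before the RefSeq start on GRCm38.p6, 5′ to 3′ on the strand of the gene, up to the first base that GENCODE places in an exon, with matches to these motifs in capitals.
*Acta1* (chr8:123894776-123894875, minus strand): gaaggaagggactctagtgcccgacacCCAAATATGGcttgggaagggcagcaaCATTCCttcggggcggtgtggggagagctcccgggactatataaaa
*Actc1* (chr2:114052888-114052975, minus strand): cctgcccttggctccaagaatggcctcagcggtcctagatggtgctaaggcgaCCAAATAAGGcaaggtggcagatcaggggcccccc
*Actg1* (chr11:120348543-120348595, minus strand): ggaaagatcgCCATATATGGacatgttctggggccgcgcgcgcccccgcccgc
The CArG box is in capitals in each line, and the second capitalized run of *Acta1* is CATTCC. RefSeq and GENCODE place the gene starts differently. The *Acta1* and *Actg1* lines lie upstream of the GENCODE gene, while the *Actc1* line lies within it, upstream of the first exon of 1 transcript and in an intron of another. The corresponding 100 bases of *Tpm1* lie wholly in a GENCODE exon and are not printed. Promoters of 300 bases were found for 8 of the 10 genes, all but *Actb* and *Actg2*, and both strands were searched. Only exact matches were counted, so a variant of a motif was not seen. A CArG box was present in 1.63% of all 32851 promoters of this length and CATTCC in 14.7%. Among the 8 genes, the CArG box occurred in the 3 shown, and CATTCC in *Acta1*, *Acta2* and *Tpm1*. CANNTG, the E-box letters bound by MYOD1 and related factors, was present in 72.3% of all promoters, and TATAAA in 13.6%. A match describes letters only. The 3 genes with a CArG box in this window had log2 fold changes of 1.47, 0.66 and -0.125 in KO over WT, in the order printed.

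Of the 10 genes, 5 were called higher in KO: *Acta1*, *Actc1*, *Actg2*, *Tpm1* and *Tpm2*. A call required more than 1.5-fold and p below 0.05 in the quasi-likelihood F-test of edgeR, after the Benjamini-Hochberg procedure over all 22071 genes tested. Over all genes, 8.31% were called higher and 8.39% lower. No member was called lower by edgeR, DESeq2 or limma-voom, with 1 lower at an unadjusted p under 0.05 (*Acta2*). At the adjusted p alone, 6 members were higher, where *Tpm3* joined the 5 called, and 1 was lower, beside 21.9% and 23.1% of all genes. The values of 6 members in KO lay above every WT value and those of 2 lay below, against 27.3% and 28.5% of all genes. The median log2 fold change was 0.44 over the members and -0.004 over all genes tested.

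*Acta1* (ENSMUSG00000031972.5, chr8:123891769-123894751 on mm10) encodes skeletal α-actin, the main actin of mature muscle fibers. Its level was 4625, 4280.5 and 4635 CPM in the WT samples and 10524, 13456 and 13505 CPM in the KO samples. Every KO sample stood above every WT sample, and KO replicate 1 was the lowest of the KO samples. The means were 4513 ± 202 CPM in the WT and 12495 ± 1707 CPM in the KO samples (SD, n = 3 each). *Acta1* rose by 1.47 on the log2 scale (SE 0.107, 95% interval 1.23 to 1.71), a fold change of 2.77 at an adjusted p of 4.6e-06 by edgeR. This log2 fold change was higher than that of 98.6% of the genes tested.

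*Actc1* (ENSMUSG00000068614.7, chr2:114047282-114053548) encodes cardiac α-actin, the other sarcomeric actin. Its level was 3392, 3065 and 3284 CPM in the WT and 4775, 5450.2 and 5144 CPM in the KO samples. The groups did not overlap, and the gap between them was narrower than for *Acta1*. *Actc1* rose by 0.66 on the log2 scale (SE 0.0756, 95% interval 0.49 to 0.83), a fold change of 1.58, with an adjusted p of 9.57e-05 by edgeR. The interval reaches below the 1.5-fold line. Both sarcomeric actin genes were called higher, and the ratio between them is given below. The 7 cardiac muscle markers summed to 12.4 to 12.6 CPM in the WT and 14.8 to 17.1 CPM in the KO samples, of which *Myh6*, a cardiac myosin heavy chain, made up 5.77 to 6.40 and 11.2 to 13.1 CPM. Of the 4 cardiac markers tested, *Myh6* was called higher and *Mybpc3* and *Myl7* lower, beside 8.31% and 8.39% of all genes. The median log2 fold change of the 4 was -0.44. *Nppa*, *Nppb* and *Nkx2-5* had at most 7 counts in any sample and did not pass the filter. The part of cardiac transcripts in the rise of *Actc1* was not tested.

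**Figure D1:**
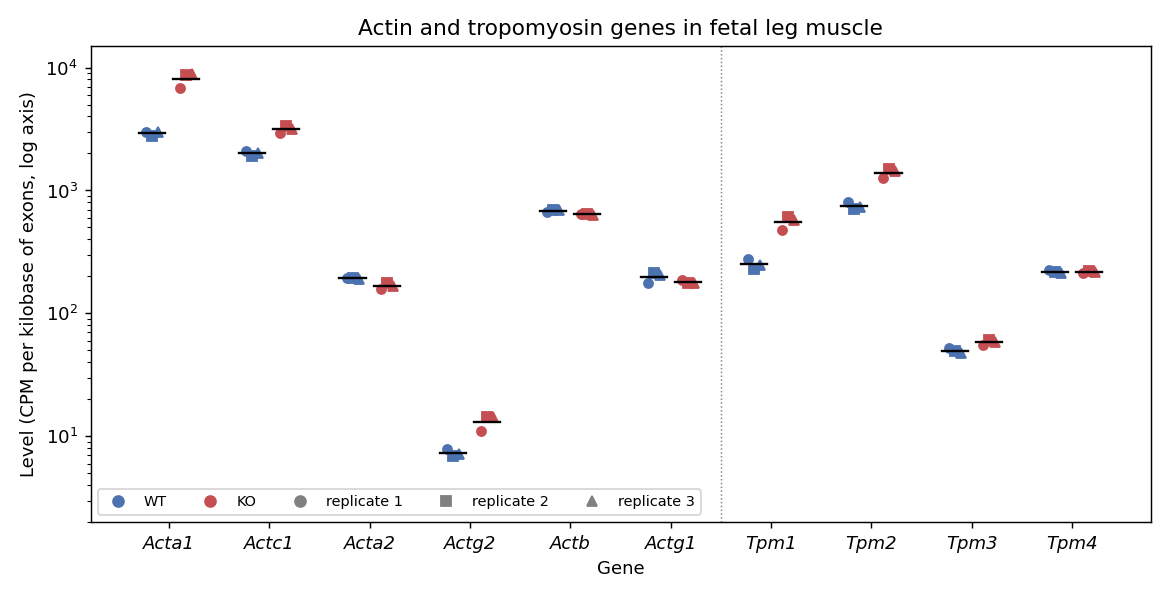
Level of the 10 genes in CPM per kilobase of exons, on a log axis, for 3 WT (blue) and 3 KO (red) samples, with the replicate shown by the symbol and the group mean by a bar. The KO samples stand above all WT samples for *Acta1*, *Actc1*, *Actg2*, *Tpm1*, *Tpm2* and *Tpm3*.

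Of the smooth muscle actin genes, *Actg2* was called higher and *Acta2* was not called. *Acta2* (ENSMUSG00000035783.9, chr19:34241090-34255590), the α-actin of vascular smooth muscle and of myofibroblasts, had 425, 426 and 418 CPM in the WT and 349.7, 389.9 and 369 CPM in the KO samples. All KO values lay below all WT values, but the log2 fold change of -0.20 (SE 0.0511, 95% interval -0.31 to -0.08) stayed under 1.5-fold, with an adjusted p of 0.0121 by edgeR. *Actg2* (ENSMUSG00000059430.14, chr6:83512905-83536265), the γ-actin of visceral smooth muscle, had 12.3, 10.7 and 11.2 CPM in the WT and 17.2, 22.2 and 22.2 CPM in the KO samples. *Actg2* was the least abundant member, every KO sample stood above every WT sample, and it rose by 0.85 on the log2 scale (SE 0.103, 95% interval 0.62 to 1.08), with an adjusted p of 0.000133 by edgeR. Per 100 counts of *Acta2*, *Actg2* had 2.89, 2.51 and 2.67 counts in WT and 4.91, 5.68 and 6.02 counts in KO. Per 100 counts of *Acta1*, it had 0.252 ± 0.0125 counts in WT and 0.164 ± 0.0008 counts in KO. Relative to *Acta2*, *Actg2* was therefore higher in each KO sample than in any WT sample, and relative to *Acta1* lower. Of 8 smooth muscle markers, 2 were called higher and 6 were not called, beside 8.31% of all genes called higher. Their median log2 fold change was 0.44. Summed levels were 326 to 344 CPM in the WT and 433 to 455 CPM in the KO samples. The 2 markers called were *Myh11*, the smooth muscle myosin heavy chain, and *Kcnmb1*, a potassium channel subunit, and DESeq2 called 1 marker. In 5 of the 8 all KO values lay above all WT values, beside 27.3% of all genes. *Tagln*, *Myocd* and *Cnn1* overlapped between the genotypes, with log2 fold changes of 0.21, 0.37 and -0.08. These genes had low mean levels of 0.84, 1.02 and 6.35 CPM in the WT and 0.97, 1.32 and 5.99 CPM in the KO samples. *Kcnmb1*, called higher, was also low, at 0.49 CPM in the WT and 0.74 CPM in the KO samples. The smooth muscle markers thus did not all stand apart by genotype, and their part in the rise of *Actg2* was not tested.

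Neither cytoplasmic actin gene was called. *Actb* (ENSMUSG00000029580.14, chr5:142903115-142906754), which encodes β-actin, had 1784, 1867 and 1864 CPM in the WT and 1733, 1724 and 1689 CPM in the KO samples. The KO values all lay below the WT values, but the log2 fold change was -0.10 (SE 0.0544, 95% interval -0.22 to 0.02) with an adjusted p of 0.168 by edgeR. *Actg1* (ENSMUSG00000062825.15, chr11:120345690-120348542), which encodes cytoplasmic γ-actin, had 466, 564 and 542 CPM in the WT and 502, 468 and 471 CPM in the KO samples. The groups overlapped, and the log2 fold change was -0.125 (SE 0.0727, 95% interval -0.29 to 0.04) with an adjusted p of 0.196 by edgeR. Both intervals exclude a 1.5-fold change in either direction. At an unadjusted p under 0.05 edgeR gave 0 of these genes, and DESeq2 and limma-voom also called neither. The fibroblast markers, with 0 of 6 called and a median log2 fold change of 0.21, and the endothelial markers, with 0 of 6 called and a median of 0.17, also stayed under 1.5-fold. At an unadjusted p under 0.05 in edgeR, 5 markers of each list were higher and 0 lower, and DESeq2 and limma-voom also called 0. At the adjusted p alone, 5 fibroblast and 4 endothelial markers were higher and 0 lower, beside 21.9% and 23.1% of all genes. Of 5 macrophage markers, 3 were called higher and 2 were not called, beside 8.31% of all genes called higher. Their median was 0.72, with sums of 187 to 201 CPM in the WT and 304 to 330.4 CPM in the KO samples.

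*Tpm1* and *Tpm2*, the genes of the α- and β-tropomyosins of striated and smooth muscle, rose. *Tpm1* (ENSMUSG00000032366.15, chr9:67022590-67049406) had 1810.1, 1488 and 1595 CPM in the WT and 3079.8, 3916 and 3762 CPM in the KO samples. *Tpm2* (ENSMUSG00000028464.16, chr4:43514711-43523765) had 2338, 2057 and 2137 CPM in the WT and 3677, 4325 and 4183 CPM in the KO samples. For both genes the WT and KO samples did not overlap, and KO replicate 1 was the lowest of the KO samples, as for *Acta1*. *Tpm1* rose by 1.14 on the log2 scale (SE 0.106, 95% interval 0.90 to 1.38), with an adjusted p of 2.36e-05 by edgeR. *Tpm2* rose by 0.90 (SE 0.0827, 95% interval 0.71 to 1.09), a fold change of 1.87, with an adjusted p of 2.17e-05 by edgeR. The intervals of these genes overlap, and the ratio between them within each sample is given below.

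*Tpm3* and *Tpm4* were not called. *Tpm3* (ENSMUSG00000027940.18, chr3:90072649-90100902), whose products are the tropomyosin of slow fibers and cytoskeletal forms, had 317, 302 and 290.2 CPM in the WT and 337, 372 and 357 CPM in the KO samples. All KO values stood above all WT values, with a log2 fold change of 0.23 (SE 0.0537, 95% interval 0.11 to 0.35) that stayed under 1.5-fold, at an adjusted p of 0.00691 by edgeR. *Tpm4* (ENSMUSG00000031799.10, in GENCODE M21 at chr8:72134975-72153142), a mainly cytoskeletal tropomyosin, had 497, 479.8 and 468 CPM in the WT and 467, 490.6 and 474 CPM in the KO samples. The groups overlapped, and the log2 fold change was -0.01 (SE 0.0475, 95% interval -0.12 to 0.09) with an adjusted p of 0.851 by edgeR. Its interval excludes a 1.5-fold change either way.

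**Figure D2:**
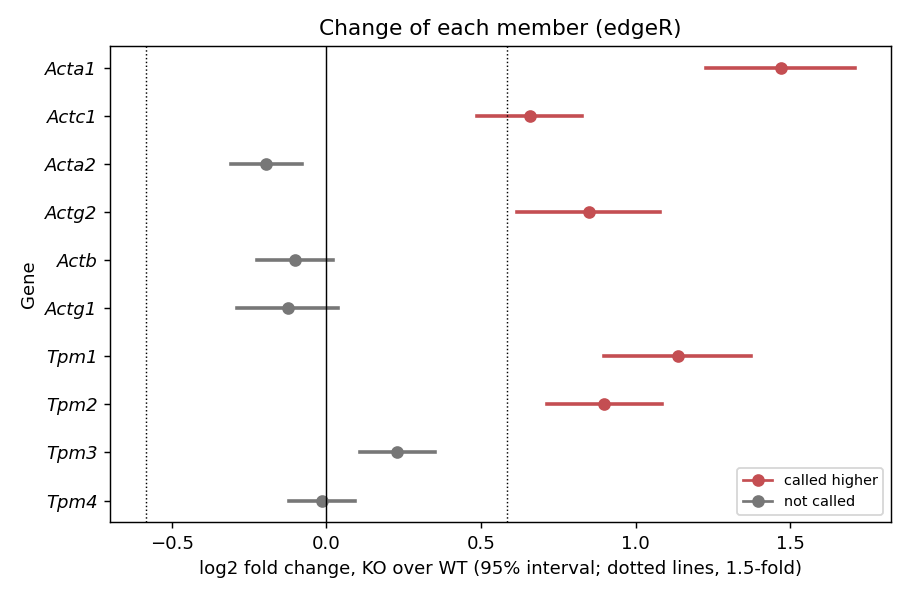
Log2 fold change of KO over WT for each of the 10 genes, from edgeR, with bars for the 95% interval, red for genes called higher and grey for genes not called, and dotted lines at 1.5-fold. *Acta1* at 1.47 and *Tpm1* at 1.14 stand farthest to the right, and *Acta2*, *Actb* and *Actg1* have values below 0.

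Gene lengths differ, so levels were compared between genes only as CPM per kilobase of the union of exons. In WT the order was *Acta1* at 2938 ± 131, *Actc1* at 2007 ± 103, *Tpm2* at 749 ± 49.8, *Actb* at 686 ± 17.6, *Tpm1* at 252 ± 25.3, *Tpm4* at 219 ± 6.54, *Actg1* at 197 ± 19.4, *Acta2* at 193 ± 2.08, *Tpm3* at 49.8 ± 2.22 and *Actg2* at 7.31 ± 0.518 CPM per kilobase (SD, n = 3). In KO the order was the same, from *Acta1* at 8135 ± 1111 and *Actc1* at 3166 ± 209 down to *Tpm3* at 58.4 ± 2.84 and *Actg2* at 13.2 ± 1.85 CPM per kilobase. In both genotypes the ranges of the samples overlapped only for the neighbours *Actg1* and *Acta2*. Divided by the longest coding transcript instead, *Actg1* moved above *Tpm4* in both genotypes, and *Tpm1* moved above *Actb* in KO.

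Within the 6 actins, the share of *Acta1* in the summed level per length was 49.0%, 48.1% and 49.1% in the WT and 63.4%, 66.7% and 67.8% in the KO samples. The share of *Actc1* was 34.1%, 32.7% and 33.0% in the WT and 27.3%, 25.6% and 24.5% in the KO samples, so that the level of *Actc1* was higher and its share lower in KO. The 2 sarcomeric actins together took 83.0%, 80.8% and 82.1% of the total in WT and 90.7%, 92.3% and 92.4% in KO. Thus the sarcomeric share was higher by 9.78 percentage points in KO, and that of *Acta1* alone by 17.2 percentage points. The cytoplasmic actins took 14.7 ± 1.01% in the WT and 6.73 ± 0.863% in the KO samples. The smooth muscle actins took 3.32 ± 0.135% in the WT and 1.48 ± 0.0866% in the KO samples, with *Actg2* at 0.121% and 0.107% (SD, n = 3 each). Counted within the sarcomeric pair only, *Acta1* took 59.4 ± 0.426% in the WT and 71.9 ± 1.80% in the KO samples.

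Within the 4 tropomyosins, *Tpm2* took 59.1%, 58.7% and 59.2% of the summed level per length in WT and 63.0%, 62.6% and 62.7% in KO. *Tpm1* took 20.5%, 19.1% and 19.8% in the WT and 23.7%, 25.4% and 25.3% in the KO samples. *Tpm4* took 16.6%, 18.1% and 17.1% in the WT and 10.6%, 9.38% and 9.39% in the KO samples. The shares of *Tpm1* and *Tpm2* were therefore higher in KO, by 5.0 and 3.78 percentage points, and those of *Tpm4* and *Tpm3* lower, with differences of -7.48 and -1.30 percentage points. *Tpm3* took 3.93 ± 0.165% in the WT and 2.63 ± 0.114% in the KO samples (SD, n = 3). The size of these differences depended on the length used. With raw counts, the share of *Tpm2* differed by only 0.517 percentage points, the groups overlapped, and the exact permutation p was 0.3. The differences of *Tpm3* and *Tpm4* became -2.41 and -4.85 percentage points with raw counts, with every KO value still below every WT value.

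**Figure D3:**
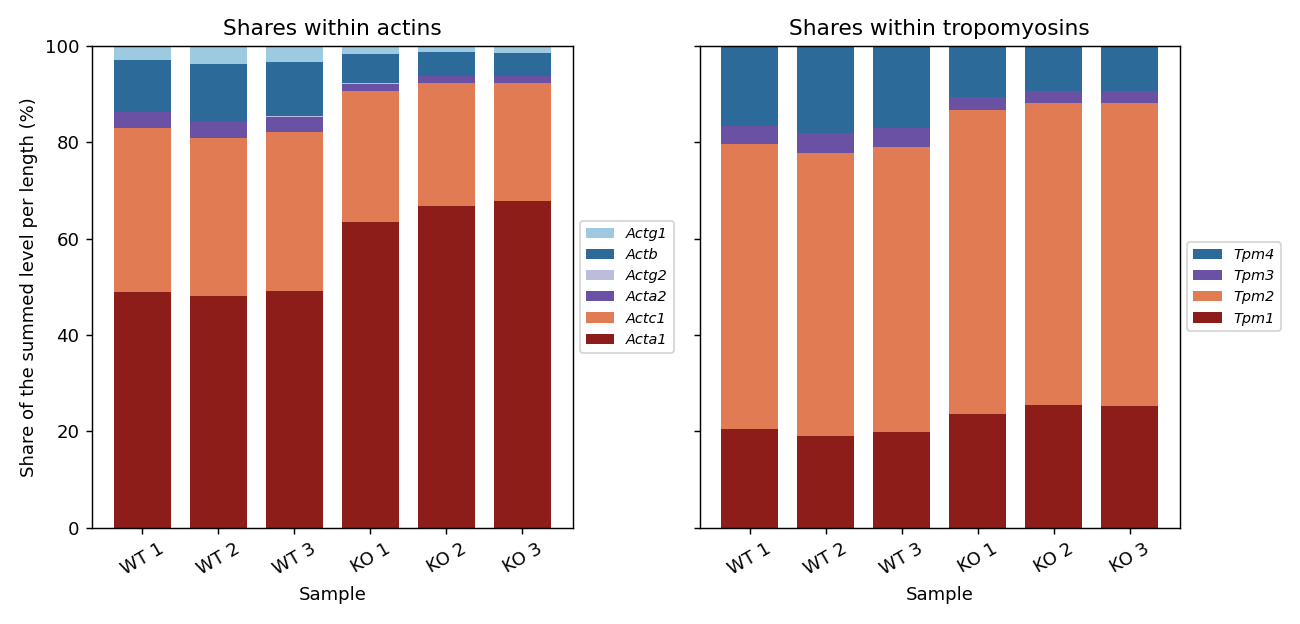
Share of each gene in the summed level per length of the 6 actins and of the 4 tropomyosins, in percent, for each of the 3 WT and 3 KO samples as stacked bars. The *Acta1* part is larger in each KO sample, at 63.4% to 67.8% against 48.1% to 49.1% in WT, and the *Tpm4* part is smaller.

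Per length of the union of exons, all 14 shares, over single genes and over the actin classes, and all 5 ratios within a sample had KO samples entirely on one side of the WT samples. With raw counts, the share of *Actg2* within the actins overlapped between the genotypes (exact permutation p = 0.2), as did that of *Tpm2*. With 3 against 3 samples, a two-sided exact permutation test cannot go below p = 0.1, and each of the 19 tests per length gave this value, also after Benjamini-Hochberg adjustment. The shares within a family sum to 100%, so a higher share of one gene lowers others without a change in their levels. A ratio within a sample does not move with the scaling between samples.

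The ratio of *Acta1* to *Actc1*, per length, was 1.44, 1.47 and 1.49 in the WT and 2.32, 2.60 and 2.77 in the KO samples. In KO, *Acta1* thus stood further above *Actc1*, by 0.80 on the log2 scale. The ratio of sarcomeric to cytoplasmic actin was 6.07, 5.15 and 5.61 in the WT and 11.7, 14.8 and 14.8 in the KO samples, a log2 difference of 1.29, the largest of the 5. The ratio of *Tpm2* to *Tpm3* was 15.4, 14.2 and 15.4 in the WT and 22.8, 24.3 and 24.5 in the KO samples, a log2 difference of 0.67. *Tpm1* and *Tpm2* moved more closely together, with a ratio of 0.347, 0.325 and 0.335 in the WT and 0.376, 0.406 and 0.403 in the KO samples, a log2 difference of 0.24. The ratio of sarcomeric actin to the sum of *Tpm1*, *Tpm2* and *Tpm3* was 4.50, 4.75 and 4.91 in the WT and 5.46, 5.64 and 5.76 in the KO samples, a log2 difference of 0.25. The 2 smallest differences were thus those between *Tpm1* and *Tpm2* and between sarcomeric actin and tropomyosin.

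**Figure D4:**
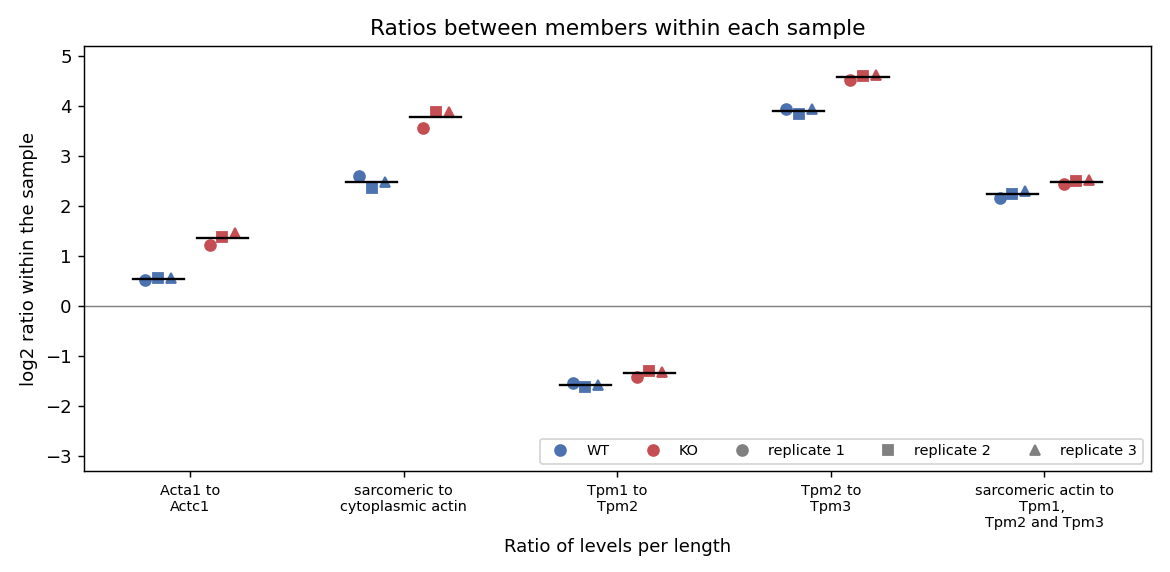
Log2 ratio of levels per length within each sample for 5 pairs of genes or sums of genes, for 3 WT (blue) and 3 KO (red) samples, with bars for the group mean. KO lies above WT for each ratio, most for sarcomeric to cytoplasmic actin, at 3.78 against 2.48.

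The genes that build, cap and turn over the actin filament and the regulators of actin genes were taken as 3 lists with 39 genes. All 39 were tested. Of these, 10 (25.6%) were called higher, 1 (2.56%) lower and 28 not, beside 8.31% and 8.39% of all genes. Their median log2 fold change was 0.30. The 17 thin filament partners, which cap, scaffold or measure the filament, had 7 called higher and 1 lower, with a median of 0.58. *Xirp2* encodes an actin-binding protein of striated muscle. It had 18.4, 14.8 and 17.6 CPM in the WT and 86.5, 104 and 108 CPM in the KO samples. *Xirp2* rose by 2.55 on the log2 scale (SE 0.0992) with an adjusted p of 1.21e-07 by edgeR. *Nrap*, a scaffold for assembling sarcomeres, had 123 ± 5.09 CPM in the WT and 351 ± 19.5 CPM in the KO samples, and rose by 1.51 (SE 0.0544) with an adjusted p of 8.89e-08 by edgeR. *Tmod4*, the tropomodulin that caps pointed ends in skeletal muscle, had 27.6 ± 2.59 and 76.0 ± 10.7 CPM, and rose by 1.46 (SE 0.103) with an adjusted p of 3.84e-06 by edgeR. The other 4 called higher were *Lmod2*, *Xirp1*, *Neb* and *Tmod1*, with log2 fold changes of 1.31, 0.97, 0.92 and 0.70. *Lmod2* nucleates filaments and *Neb* encodes nebulin, a protein that runs along the thin filament.

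The single partner called lower was *Nebl*, which encodes nebulette, a relative of nebulin best known from the heart. It had 18.6, 24.9 and 17.7 CPM in the WT and 2.14, 2.46 and 2.40 CPM in the KO samples, and fell by 3.13 on the log2 scale (SE 0.138) with an adjusted p of 2.08e-07 by edgeR. WT replicate 2 had the highest *Nebl* level and also the highest keratinocyte marker sum, 24154 CPM. WT replicate 1 had a lower marker sum than WT replicate 3, 16149 against 18045 CPM, but the higher *Nebl* level. The part of these markers in the fall of *Nebl* was not tested. Among the tropomodulins not called, *Tmod3* of non-muscle cells had 117 ± 2.59 CPM in the WT and 101 ± 2.10 CPM in the KO samples, and *Tmod2* had 35.4 ± 1.98 and 43.7 ± 2.53 CPM. The capping protein genes *Capza1*, *Capza2* and *Capzb* had log2 fold changes of -0.25, 0.18 and 0.04 and were not called. *Lmod3* and *Klhl40* lay just under the 1.5-fold line, with log2 fold changes of 0.58 each.

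Of the 13 actin turnover genes, 2 (15.4%) were called higher and 0 lower, beside 8.31% and 8.39% of all genes. Their median log2 fold change was 0.01. The 2 were *Cfl2*, the muscle cofilin that severs filaments, with 293 ± 16.0 CPM in the WT and 463 ± 53.0 CPM in the KO samples, and *Pfn2*, a profilin, with 51.2 ± 3.69 and 82.4 ± 5.61 CPM. *Cfl2* rose by 0.66 (SE 0.0822, adjusted p of 0.000157 by edgeR) and *Pfn2* by 0.69 (SE 0.0638, adjusted p of 2.31e-05 by edgeR). Their broadly expressed relatives *Cfl1* and *Pfn1* had log2 fold changes of -0.12 and 0.01 and were not called. *Dstn*, which encodes destrin of the cofilin family, had 308 ± 12 CPM in the WT and 219 ± 10.7 CPM in the KO samples, a log2 fold change of -0.49 under the 1.5-fold line. At an unadjusted p under 0.05 in edgeR, 5 turnover genes were higher and 3 lower, and DESeq2 and limma-voom called 0 lower. At the adjusted p alone, 5 were higher and 2 lower, beside 21.9% and 23.1% of all genes.

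Of the 9 regulators of actin genes, 1 was called higher and 0 lower, with a median log2 fold change of 0.23. The share called higher, 11.1%, was near the 8.31% of all genes. The gene called was *Abra*, whose product promotes the signal from actin to serum response factor, with 9.70 ± 0.483 CPM in the WT and 25.0 ± 3.53 CPM in the KO samples (SD, n = 3 each). Its log2 fold change was 1.36 (SE 0.1), with an adjusted p of 4.87e-06 by edgeR. *Srf*, serum response factor itself, had 91.8 ± 5.14 CPM in the WT and 102.5 ± 2.36 CPM in the KO samples, a log2 fold change of 0.16 under 1.5-fold. Its coactivators *Mrtfa* and *Mrtfb* had 0.20 and 0.16, and *Tead1*, whose product reads the MCAT element, had 0.14. All 9 regulators were higher in KO at an unadjusted p under 0.05 by edgeR, and 8 at the adjusted p alone, beside 21.9% of all genes. In 8 of the 9 every KO sample stood above every WT sample, beside 27.3% of all genes, the exception being *Myocd*, near 1 CPM. DESeq2 and limma-voom called 0 regulators lower.

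**Figure D5:**
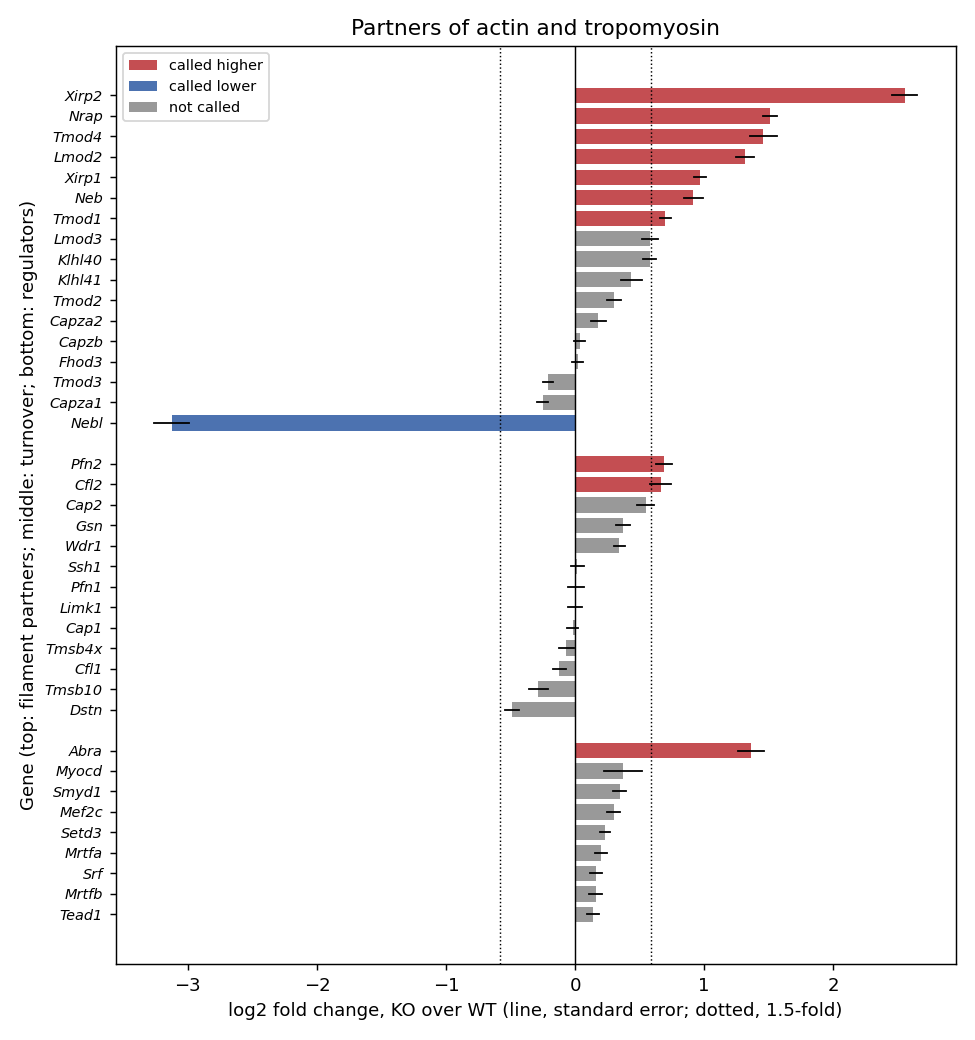
Log2 fold change of KO over WT from edgeR for 17 thin filament partners, 13 actin turnover genes and 9 regulators of actin genes. Solid lines show the standard error to either side, and dotted lines mark 1.5-fold. *Xirp2* at 2.55 and *Nebl* at -3.13 are the extremes, and most turnover genes and regulators lie between the dotted lines.

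The genes whose pattern over the 6 samples was most like that of a striated muscle member were sought among 4258 genes with a mean of at least 50 CPM, as the Euclidean distance between log2 CPM centred on each gene. The samples are shared and split by genotype, so likeness over 6 samples is a description. Nearest to *Acta1* were *Mlip*, a lamin-interacting protein of muscle, at a distance of 0.039 and *Mylk2*, the skeletal myosin light chain kinase, at 0.0511, where the median gene stood at 1.85. *Mlip* had 36.5 CPM in the WT and 101 CPM in the KO samples. Nearest to *Actc1* were *Ptp4a3*, a phosphatase, at 0.0804 and *Myl3*, a myosin light chain of slow and cardiac muscle, at 0.0811, with a median of 0.865. Nearest to *Tpm1* were *Fabp4*, a fatty acid binding protein, at 0.104 and *Atp1b4* at 0.109, with a median of 1.46. Nearest to *Tpm2* were *Myom2*, an M-band protein of the sarcomere, at 0.075 and *Stbd1*, a glycogen-binding protein, at 0.0795, with a median of 1.16. Nearest to *Tpm3* were *Rsrp1* at 0.0397 and *Ugdh*, an enzyme of sugar nucleotide synthesis, at 0.0526, with a median of 0.4.

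Actin genes are alike in sequence, so it was counted how much of each member could be confused with another gene. The longest complete coding sequence of each gene was aligned, and identity was counted over the alignment with its gaps. Actin pairs were 81.5% to 88.6% identical, highest for *Actb* and *Actg1*, and tropomyosin pairs 59.9% to 74.4%, highest for *Tpm2* and *Tpm3*. The tropomyosin sequences aligned had 978, 852, 855 and 744 bases for *Tpm1*, *Tpm2*, *Tpm3* and *Tpm4*. Gaps lower the identity of pairs of unlike length, so the tropomyosin values also depend on which transcripts were compared. *Acta1* and *Actc1* were 86.3% identical, with a longest identical run of 29 bases, which is shorter than a read. No window of 150 bases, the read length, from the annotated transcripts of *Acta1*, *Actc1*, *Acta2*, *Actg2*, *Actb*, *Tpm1* or *Tpm2* occurred exactly in a transcript of another annotated gene. Of the windows of *Actg1*, 23.3% were shared with 3 processed pseudogenes, of *Tpm3* 10.2% with *Tpm3-rs7*, and of *Tpm4* 5.11% with the pseudogene *Gm7809*. The counts of *Actg1*, *Tpm3* and *Tpm4* are therefore less certain, as the handling of reads with several matches is not given in the sources used here. *Tpm3-rs7* had 1809, 1833 and 2620 counts in WT and 1897, 1816 and 2075 counts in KO. *Tpm4* also overlaps the antisense gene *Gm26586* over 134 exonic bases, which had 47 to 71 counts per sample. Counts per gene do not separate the transcripts of *Tpm1*, with 21 annotated, and *Tpm3*, with 16, so muscle and cytoskeletal forms of 1 gene were not told apart.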

How the data were processed

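Leg muscle RNA-seq of 3 WT and 3 KO samples was used. Per the submitters' processing notes, the authors trimmed reads with Trim Galore 0.6.6, mapped them to mm10 with HISAT2 2.2.1 and counted them per gene with featureCounts 2.0.1. The authors deposited whole-number counts for each gene, not normalized. The annotation, strand setting and handling of reads with several matches are not given in the sources used here.

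Counts were fitted in R 4.3.3 with edgeR 4.0.16 (filterByExpr, TMM, quasi-likelihood F-test, genotype alone) over 22071 genes. Genes were called above 1.5-fold with a Benjamini-Hochberg adjusted p under 0.05. Levels per length used the union of exons in GENCODE M21, where 55227 of 56262 identifiers matched. Shares and ratios were compared with two-sided exact permutation tests (SciPy 1.17.1). Motifs were sought in RefSeq promoters of GRCm38.p6. Coding sequences were aligned with Biopython 1.88. Replicates differed by more than counting noise.

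All 10 members were named, with, of the partner lists (thin filament partners, actin turnover genes, regulators of actin genes), up to 3 largest rises and 3 largest falls called, and the 2 nearest genes of 5 striated members with a mean of at least 50 CPM. Other genes of these lists were named after their values were seen. The members and lists, including markers of skeletal, smooth and cardiac muscle, keratinocytes, fibroblasts, endothelium, macrophages and erythroid cells, were chosen with earlier results of these data known. Alternatives were other scalings, DESeq2 1.42.0, limma-voom (limma 3.58.1), other filters and thresholds, a replicate block, other lengths and each sample left out. The fits were tested on simulated data.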

Additional observations from a re-analysis of the deposited data

How the results depend on the processing

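Over 15 alternative fits, each member kept its call, and all 10 but *Tpm4* kept their direction. *Tpm4*, not called, changed sign to 0.055 with upper-quartile factors, and without 1 sample its log2 fold change ranged from -0.034 to 0.009, positive without WT replicate 1 or KO replicate 1. *Acta1* ranged from 1.40 to 1.58, and the adjusted p of *Acta2* from 0.00138 to 0.0672, both limits by edgeR. The adjusted p of *Actb* ranged from 0.038 by library size only to 0.68, both by edgeR. That of *Actg1* ranged from 0.0149 without WT replicate 1 to 0.555, also by edgeR. Neither cytoplasmic actin passed 1.5-fold in any of these fits. With a fold change over 2, 2 members and 5 partners were called higher, and 0 members and 1 partner lower. The share of all genes at this threshold was not counted, so these counts have no background beside them. At the adjusted p alone, 1 member was lower, and 25 partners were higher and 5 lower. At that threshold 21.9% of all genes were higher and 23.1% lower. Without 1 sample, the partners called higher ranged from 10 to 13, beside 1660 to 1953 of all genes. The 13 came without KO replicate 1, where 1953 of 22534 genes were called higher, against 1835 of 22071 in the main fit. Taken from counts without length, the share of sarcomeric actins was higher in KO by 13.624 percentage points, that of *Tpm1* by 6.741 and that of *Tpm2* by 0.517, and with the longest coding transcript by 11.325, 6.224 and 1.569, because the lengths weight the genes differently. The share of *Tpm3* differed by -2.408 and -2.484 and that of *Tpm4* by -4.851 and -5.31 under these settings. Among all calls, 49.8% were higher, against 42.3% by library size and 56.7% with upper-quartile factors, where the median log2 fold change of all genes was -0.073 and 0.064 in place of -0.004. Same-numbered WT and KO samples share only a number, with deviations correlated at -0.20, -0.13 and 0.05. With the replicate block 5 members and 10 partners were higher and 0 and 1 lower. In that fit 1744 of all 22071 genes were called higher and 1777 lower. With 3 samples per group, the exact permutation tests could not reach 0.05, and gene counts limit what can be said of tropomyosin transcripts.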
